A study of Homo sapiens with 6 samples.

Results

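The genes described here are 10 selenoproteins, SELENOT, SELENOK, SELENOS, SELENOF, SELENOH, SELENOI, SELENON, SELENOO, SELENOW and GPX1, measured in 786-O cells in which ERCC6L was knocked down. They were grouped by gene family, and the family was picked on the fall of SELENOT, which was among the largest on these arrays. SELENOT is therefore described without a test. The members are every probe set whose only gene symbol is 1 of the 10, which gave 20 of the 49293 probe sets and 10 of the 18132 genes in the whole table. Human cells encode 25 selenoproteins, and 14 of the 15 outside this group had a probe set of their own as well.

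786-O is an established human renal cell carcinoma line. Cells of all 6 samples received a short hairpin RNA (shRNA) by lentivirus. A control hairpin was used for 3 arrays (shNC) and a hairpin against ERCC6L, a DNA translocase of mitotic cells, for the other 3 (shERCC6L). The labels do not name the hairpin sequences or say how many were used, whether cells were selected or cloned, how long after infection RNA was taken, or whether replicates were separate infections. The p-values therefore rest on the spread among these arrays, and that spread may be only technical. Values are linear Affymetrix signals on a common scale, with array medians from 60.02 to 61.54. Correlations across genes were 0.9987 to 0.9991 within groups and 0.9934 to 0.9942 between them. The target read 239.9, 244.3 and 261.4 in shNC and 97.59, 97.49 and 97.83 in shERCC6L, 39.3% of control. All 9 measured renal epithelial markers, such as PAX8, KRT8 and MET, exceeded the array median on every array. The same held for 0 of 4 leukocyte, 0 of 6 fibroblast and 1 of 5 endothelial markers (VWF). Of 4 erythroid markers listed only 2 had a probe set of their own, HBB and ALAS2, and both exceeded the median. ALAS2 did so only just, at 62 to 69.25.

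Selenoproteins carry selenocysteine, the selenium analogue of cysteine, which is inserted at a UGA codon that would otherwise stop translation. A hairpin in the messenger RNA, the SECIS element, recruits the binding protein SECISBP2 and the elongation factor EEFSEC with the selenocysteine tRNA. Most selenoproteins of known function are oxidoreductases: glutathione peroxidases remove peroxides, thioredoxin reductases keep thioredoxin reduced, and a group in the endoplasmic reticulum (ER) takes part in protein folding, degradation and calcium handling. When selenium is scarce, mRNAs such as GPX1 are known to be lost before others, in part through nonsense-mediated decay.

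SELENOT is a thioredoxin-like protein of the ER membrane. Its gene lies on chromosome 3 from 150603321 to 150630436 (GRCh38.p14, RefSeq), on the plus strand. SELENOK and SELENOS, single-pass ER membrane proteins of the pathway that retrieves misfolded proteins for degradation, were the members that rose. SELENOK lies on chromosome 3 from 53884417 to 53891859 and SELENOS on chromosome 15 from 101270809 to 101277485, both on the minus strand. The 250 bases before the RefSeq start of these 3 genes are shown because they are the upstream regions of the member with the largest change and of the 2 that rose, read 5′ to 3′ on the gene's strand, at chr3:150603071-150603320, chr3:53891860-53892109 and chr15:101277486-101277735. Capitals mark CCAAT boxes and the letters CCACG on either strand, which together make up the ER stress response element.

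SELENOT: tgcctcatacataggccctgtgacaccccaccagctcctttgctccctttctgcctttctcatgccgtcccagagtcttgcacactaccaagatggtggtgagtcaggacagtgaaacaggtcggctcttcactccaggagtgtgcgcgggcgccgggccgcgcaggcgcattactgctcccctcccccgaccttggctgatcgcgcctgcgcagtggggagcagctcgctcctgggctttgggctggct
SELENOK: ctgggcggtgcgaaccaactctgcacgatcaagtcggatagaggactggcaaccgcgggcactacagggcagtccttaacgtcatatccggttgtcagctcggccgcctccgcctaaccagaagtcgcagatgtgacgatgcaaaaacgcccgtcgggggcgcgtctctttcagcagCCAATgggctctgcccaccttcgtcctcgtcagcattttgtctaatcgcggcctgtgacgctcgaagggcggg
SELENOS: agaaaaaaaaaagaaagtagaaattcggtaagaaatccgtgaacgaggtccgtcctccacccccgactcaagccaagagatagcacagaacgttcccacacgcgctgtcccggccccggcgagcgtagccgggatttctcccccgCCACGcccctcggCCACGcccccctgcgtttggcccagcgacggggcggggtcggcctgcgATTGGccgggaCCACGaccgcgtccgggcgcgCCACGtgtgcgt

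The SELENOT window held neither motif. The SELENOK window held 1 CCAAT box, whose leftmost base lay at -73 from the start, and 0 CCACG. The SELENOS window held 1 CCAAT box at -44, on the opposite strand (ATTGG), and 4 matches of CCACG. Of the other members that fell, SELENOI held 1 CCAAT box and 2 CCACG, SELENOH 0 and 2, and GPX1 0 and 1. Of those that did not pass, SELENOW held 1 CCAAT box and 0 CCACG, and SELENON 0 of each. The SELENOF windows held 1 CCAAT box and 1 CCACG, or 0 and 1. The motifs thus lay in windows of members that rose, fell or did not pass. Of all 35116 RefSeq windows of this length, 32.0% held a CCAAT box and 33.5% held CCACG. The full element, CCAAT followed after any 9 bases by CCACG, was in 26 windows (0.074%) and in none of the windows of the 9 members that had one. These matches describe letters only, and SELENOO was without a window here.

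SELENOT was lower on every shERCC6L array with each of its 4 probe sets. The brightest, 11716026_s_at, read 1052, 1138 and 1071 in shNC and 321, 360.4 and 382.1 in shERCC6L. Mean signal fell from 1090 ± 45.1 to 354 ± 31 (SD, n = 3 per group), which left 32.6% of the control signal. On the log2(signal + 16) scale, used for all fold changes below and compressing those of dim probe sets, this was -1.58 ± 0.06 (SE). In bulk RNA a loss from some cells and a smaller loss from all of them cannot be told apart.

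The other SELENOT probe sets gave smaller falls. Probe set 11716027_at read 338.6, 318.1 and 338.1 in shNC against 183.4, 179.6 and 177 in shERCC6L, with 54.3% left (log2 fold change -0.83). Probe set 11716028_x_at, designed on the same source sequence, read 296.3, 283.5 and 309.7 against 153.2, 161.4 and 164.8 (53.9% left, log2 fold change -0.83). These 2 thus gave nearly the same fall.

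The dimmest, 11758712_s_at, read 129.4, 128.2 and 134.9 in shNC and 80.43, 80.8 and 86.71 in shERCC6L (63.2% left, log2 fold change -0.57). In all 4 the groups did not overlap, which was also so for 41.0% of all probe sets. SELENOT was picked on its fall, so this separation is described only and supports nothing further. The size of the fall depended on the probe set, from 1.49-fold to 2.98-fold. With the 4 averaged, the log2 fold change was -0.95. In Affymetrix naming, _s_at marks a probe set that may also detect other transcripts, and _x_at one that has some cross-hybridizing probes. Leaving out both kinds, a choice made after seeing the data, gave -0.83.

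**Figure D1:**
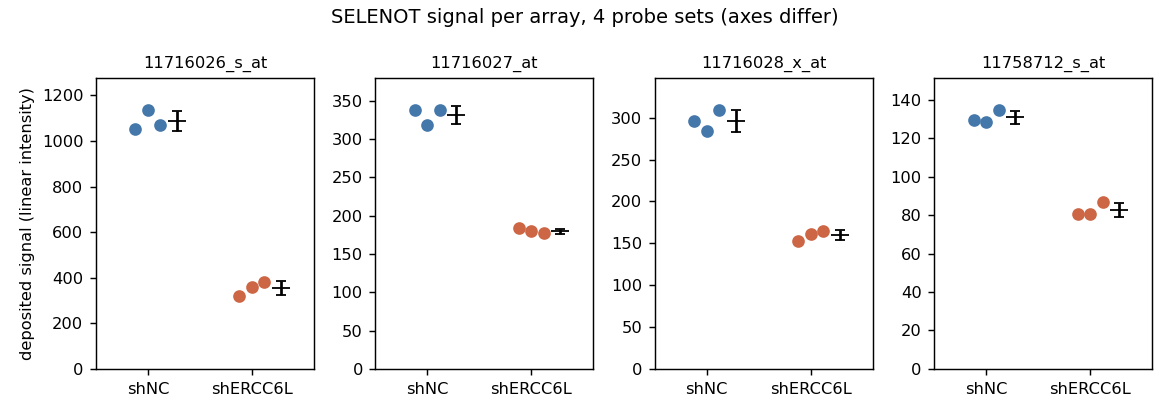
SELENOT signal (linear intensity, axes from 0 and scaled per panel) on each array for its 4 probe sets. Blue points are shNC arrays and orange points shERCC6L arrays, and black marks are the mean ± SD of 3 arrays. In each panel every shERCC6L array lies below every shNC array, with 32.6%, 54.3%, 53.9% and 63.2% of the control mean left. SELENOT was picked on its fall.

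By brightest probe sets SELENOT was the gene with the fall of rank 5 among 18132 genes, between CRIM1 (-1.64) and SOX4 (-1.55). The genes whose values over the 6 arrays, each centred on its own mean, lay closest to SELENOT were CRIM1, OSTC and SOX4, at root mean square distances of 0.0563, 0.0621 and 0.066 on the log2 scale. CRIM1 encodes a membrane protein that binds bone morphogenetic proteins, OSTC a subunit of the ER oligosaccharyltransferase, and SOX4 a transcription factor. With 2 groups of 3 arrays this likeness mostly restates a fall of similar size.

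Among the 9 other members, SELENOK and SELENOS rose, GPX1, SELENOH and SELENOI fell, and SELENOF, SELENON, SELENOO and SELENOW did not pass the test (limma, Benjamini-Hochberg adjusted p under 0.05). Of all genes 31.6% passed, 18.2% higher and 13.4% lower. All 10 members lay at or above the median level of all genes, and among genes at that level 52.4% passed, 32.8% higher and 19.6% lower. A count of 5 of 9 is near that share. The median log2 fold change was -0.029 over these 9 members, against -0.011 over all genes and 0.036 over genes at or above the median level. On their brightest probe sets, changes in the 5 that passed were at most 1.22-fold.

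Of their 16 probe sets 3 were higher, 6 lower and 7 did not pass, while 28.7% of all probe sets passed (16.8% higher and 11.9% lower). The shNC and shERCC6L values did not overlap for 11 of the 16, against 41.0% of all probe sets. These shares of all probe sets include dim ones and are not matched to the members in level. Probe sets of the same gene are also not independent. The adjusted p-values of members given below are over all 49293 probe sets.

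SELENOK, which helps the enzyme ZDHHC6 to palmitoylate proteins and binds derlins, rose on both of its probe sets. The brighter read 1015, 1062 and 1030 in shNC and 1142, 1262 and 1284 in shERCC6L. This was a log2 fold change of 0.24 ± 0.05 (SE, n = 3 a group; limma adjusted p = 0.00552). The other read 940.1, 999.7 and 972 against 1062, 1113 and 1190, a log2 fold change of 0.20 (limma adjusted p = 0.0114). Neither pair of groups overlapped, and the shERCC6L arrays spread more than the controls, with SDs of 76.7 and 23.9 on the brighter probe set.

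SELENOS (VIMP), which tethers the ATPase VCP to derlins at the ER membrane, rose by as much. Its brighter probe set read 771.6, 780.6 and 810.2 in shNC and 913.5, 947.3 and 928.4 in shERCC6L, a log2 fold change of 0.24 ± 0.03 (SE, n = 3 per group; limma adjusted p = 0.00109). The dimmer one read 65.34, 68.9 and 67.38 against 76.32, 77.69 and 69.99. There the groups did not overlap, but the log2 fold change of 0.12 missed the threshold (limma adjusted p = 0.0578; 95% interval 0.03 to 0.22).

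The other ER members were SELENOF, which partners the glycoprotein folding sensor UGGT1 in the ER lumen, and SELENON, a calcium-regulating membrane protein whose loss causes congenital muscle disease. SELENOF read 2914, 2853 and 2914 in shNC and 2778, 2849 and 2926 in shERCC6L on its brighter probe set. These groups overlapped, with a log2 fold change of -0.02 (95% interval -0.10 to 0.06). Its second probe set had groups that did not overlap, at -0.06 (limma adjusted p = 0.198). SELENON read 91.88, 92.35 and 89.62 against 89.71, 83.06 and 95.05, a log2 fold change of -0.03 (95% interval -0.13 to 0.07). Here the 3 shERCC6L arrays enclosed the controls.

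SELENOI is the ethanolamine phosphotransferase that makes phosphatidylethanolamine and plasmalogens. Its brightest probe set read 408.4, 418.6 and 415.2 in shNC and 380.3, 370.5 and 353.5 in shERCC6L, a log2 fold change of -0.16 ± 0.04 (SE, n = 3 per group; limma adjusted p = 0.00985). A second, dim probe set read 48.66, 53.57 and 56.41 against 44.94, 46.75 and 43.73 (-0.17; limma adjusted p = 0.0244). That call was lost without shNC replicate 2 or 3 or without shERCC6L replicate 1 or 3, at adjusted p-values of 0.0619 to 0.0833. The third read 23.8 to 26.93 over all 6 arrays, below every array median, and gave a log2 fold change of 0.00 (95% interval -0.09 to 0.09).

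GPX1, the cytosolic and mitochondrial glutathione peroxidase, had the largest change of the 9. It lies on chromosome 3 from 49357176 to 49358353. Its brighter probe set read 4156, 3931 and 4145 in shNC and 3320, 3420 and 3261 in shERCC6L, which left 81.8% of the control signal. This was a log2 fold change of -0.29 ± 0.04 (SE, n = 3 a group; limma adjusted p = 0.000529). The other read 2907, 2826 and 2845 against 2314, 2371 and 2296, a log2 fold change of -0.30 (limma adjusted p = 0.000212). The 2 probe sets differed by less than their errors. Both are of the _x_at kind, so neither is free of cross-hybridizing probes.

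SELENOH and SELENOW share with SELENOT the thioredoxin-like fold of the Rdx family. SELENOH, a nucleolar DNA-binding oxidoreductase, read 2562, 2506 and 2500 in shNC and 2195, 2252 and 2214 in shERCC6L on its brighter probe set (log2 fold change -0.18 ± 0.03; limma adjusted p = 0.00265). Its other read 1393, 1401 and 1404 against 1212, 1163 and 1218, at -0.22 (limma adjusted p = 0.00117). Both sets of groups were apart, and both probe sets are of the _x_at or _s_at kind.

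SELENOW, a small cytosolic protein, read 356.2, 335.7 and 329.7 in shNC and 328.1, 332 and 355.8 in shERCC6L. The groups overlapped almost wholly, with a log2 fold change of -0.01 (95% interval -0.11 to 0.09). SELENOV, the testis member of the family, read 9.32 to 12 on all arrays, with a log2 fold change of -0.02. On their brightest probe sets the 4 family members thus had log2 fold changes of -1.58 (SELENOT), -0.18 (SELENOH), -0.01 (SELENOW) and -0.02 (SELENOV). The SELENOV level was too dim to judge. SELENOT was picked on its fall, and its other probe sets gave -0.83, -0.83 and -0.57.

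SELENOO, a mitochondrial pseudokinase that attaches AMP to proteins, read 178.6, 168.9 and 179.1 in shNC and 174.7, 170 and 164.1 in shERCC6L. These groups overlapped, with a log2 fold change of -0.05 (95% interval -0.13 to 0.04). For each of the 4 members that did not pass, the interval of the brightest probe set lay within 0.13 of 0 on the log2 scale. Changes as large as those of GPX1 or SELENOK lay outside these intervals.

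**Figure D2:**
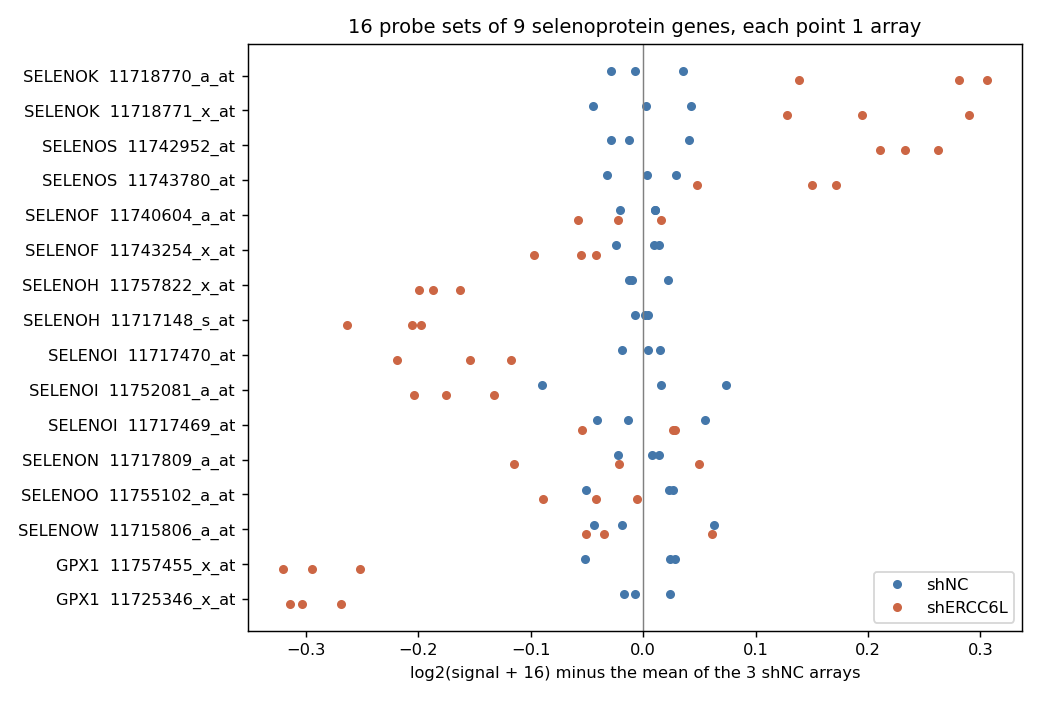
Values of the 16 probe sets of the 9 members other than SELENOT, as log2(signal + 16) minus the mean of the 3 shNC arrays; each point is 1 array, blue for shNC and orange for shERCC6L. Points of SELENOK and the brighter SELENOS probe set lie to the right of the controls, those of GPX1, SELENOH and the brightest SELENOI probe set to the left. Points of SELENON, SELENOO and SELENOW overlap their controls, with some shERCC6L points outside the control range.

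The 14 other selenoproteins with a probe set of their own were counted from each gene's brightest probe set, with p-values adjusted over all 18132 genes, as for every list below. Of these 14, 2 were higher, 2 lower and 10 did not pass, with a median log2 fold change of -0.022. The 28.6% that passed was near the 31.6% of all genes, and 7 of the 14 lay at or above the median level. GPX4, the peroxidase that reduces lipid hydroperoxides and guards against ferroptosis, read 3666, 3713 and 3667 in shNC and 2918, 3034 and 3112 in shERCC6L (log2 fold change -0.28 ± 0.04; limma adjusted p = 0.000308). Its log2 fold change was close to that of GPX1 (-0.29); the difference was not tested.

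SELENOM, an ER thioredoxin-like protein, fell by 0.17 on the log2 scale (1017, 1002 and 1041 against 904.8, 910.7 and 892.5; limma adjusted p = 0.0033). TXNRD1, the cytosolic thioredoxin reductase and a target of the antioxidant factor NRF2, rose. It read 2933, 3054 and 2987 in shNC and 3339, 3438 and 3415 in shERCC6L (log2 fold change 0.18 ± 0.03; limma adjusted p = 0.00286), and its 2 other probe sets both gave 0.27.

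SELENOP, the secreted selenium carrier, read only 28.61 to 35.77. It passed at 0.13 (limma adjusted p = 0.0325), but its other probe set gave 0.05 and did not pass, and the call ended under 9 of 16 alternatives. MSRB1 and SEPHS2, at 0.01 and 0.00, and TXNRD2, at 0.10 on the brightest of its 5 probe sets, did not pass. Of the other TXNRD2 probe sets 1, of the _x_at kind, passed at 0.12 (limma adjusted p = 0.0244). The deiodinases DIO1, DIO2 and DIO3 and the peroxidases GPX2 and GPX3 lay below every array median and did not pass.

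**Figure D3:**
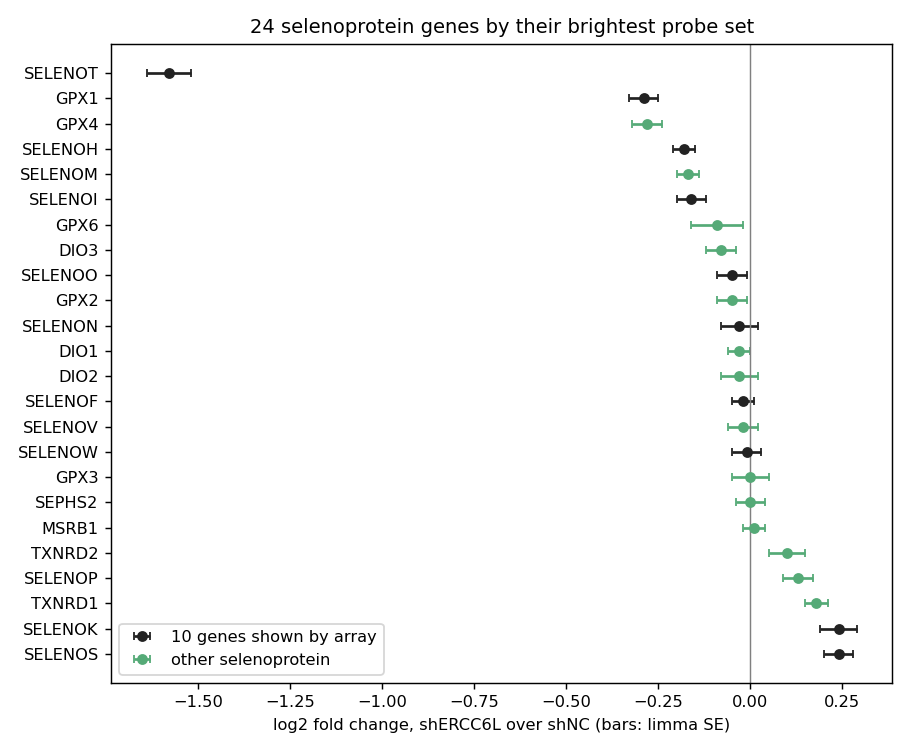
Log2 fold change (shERCC6L over shNC, brightest probe set, bars are limma SE) of the 24 measured selenoproteins; black marks the 10 genes shown by array and green the 14 others. SELENOT, picked on its fall, lies at -1.58 on this probe set and at -0.95 with its probe sets averaged. The other 23 lie between -0.29 and 0.24.

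Of 13 genes of selenocysteine synthesis and insertion, 1 was higher, 3 lower and 9 did not pass (median log2 fold change -0.02). The 30.8% that passed was near the 31.6% of all genes and under the 52.4% of genes at or above the median level, where 9 of the 13 lay. SARS1, the seryl-tRNA synthetase that starts selenocysteine synthesis by charging its tRNA with serine, fell most. It read 1449, 1409 and 1414 in shNC and 1134, 1147 and 1115 in shERCC6L (log2 fold change -0.33 ± 0.03; limma adjusted p = 7.99e-05). PSTK, the kinase that phosphorylates that serine, fell by 0.28 (limma adjusted p = 0.0241), and its call was lost without shNC replicate 1 or 3 or shERCC6L replicate 3 (adjusted p = 0.0813, 0.0728 and 0.0686).

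SECISBP2 read 150.2, 158.9 and 165.8 in shNC and 137.7, 124.5 and 140.2 in shERCC6L (log2 fold change -0.22 ± 0.05; limma adjusted p = 0.01). Its 6 probe sets gave log2 fold changes from -0.23 to -0.12, all lower. TRNAU1AP, which binds the selenocysteine tRNA, rose by 0.21 (limma adjusted p = 0.0134). Another TRNAU1AP probe set rose by 0.24, and a dim one, at 0.03, did not pass. EEFSEC at -0.03, SEPSECS at -0.02 and SEPHS1 at 0.08 did not pass on their brightest probe sets, though the 2 other SEPHS1 probe sets rose, by 0.38 and 0.18.

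Of the 2 receptors that take up SELENOP, LRP8 rose and LRP2 was dim. LRP8 read 202.9, 197.9 and 203.5 in shNC and 300.2, 317.2 and 303.7 in shERCC6L, a log2 fold change of 0.57 ± 0.04 (SE, n = 3 per group; limma adjusted p = 4.86e-06). Its second probe set gave 0.53. LRP2 read 30.67 to 37.41 and did not pass (0.01). LRP8 also binds reelin and apolipoprotein E, so its level is not a measure of selenium uptake alone.

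Among 6 glutathione peroxidases and methionine sulfoxide reductases that use cysteine rather than selenocysteine, 0 were higher, 3 lower and 3 did not pass (median log2 fold change -0.113). With probe sets averaged 1 was higher and 2 lower. The share that passed, 3 of 6, compares with 31.6% of all genes and 52.4% of those at or above the median level, where 3 of the 6 lay. The methionine sulfoxide reductases MSRA and MSRB2 fell by 0.34 and 0.27 (limma adjusted p = 0.000437 and 0.000384), although on neither gene did another probe set pass. GPX5 fell by 0.19 from a dim level (limma adjusted p = 0.00836), and with its probe sets averaged it did not pass (-0.06). MSRB3 did not pass on its brightest probe set, at 0.08, but did with probe sets averaged (0.13; limma adjusted p = 0.00638).

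Of 16 measured ER partners of SELENOK, SELENOS and SELENOF, 4 were higher, 2 lower and 10 did not pass (median log2 fold change -0.001), while 15 of the 16 lay at or above the median level. The 37.5% that passed was under the 52.4% of genes at that level. The balance of directions depended on the processing: 2 were higher and 5 lower with quantile normalization, 2 higher and 3 lower with the replicate block, and 4 higher and 4 lower with array weights. The ubiquitin ligase SYVN1 (HRD1), the core of the degradation channel, rose from 257.5, 242.5 and 253.4 to 298.9, 310.7 and 301 (log2 fold change 0.26 ± 0.04; limma adjusted p = 0.000599). Its other probe set, dim at 15.66 to 17.82, gave -0.05 and did not pass. DERL2, a derlin of that channel, fell from 571.4, 595.3 and 600.7 to 437.3, 460 and 486.1 (-0.34 ± 0.04; limma adjusted p = 0.00035).

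CANX, the membrane chaperone calnexin, rose by 0.14 (limma adjusted p = 0.0127). All 9 CANX probe sets gave log2 fold changes above 0 and 6 passed. Of the 4 that were neither _x_at nor _s_at, 2 passed, at 0.20 and 0.47, and 2 did not, at 0.07 and 0.11. UBXN8, which brings VCP to the ER, fell by 0.16 from a dim level (limma adjusted p = 0.0108). Its other probe set, at -0.09, did not pass. DERL1 at -0.02, VCP at -0.07, ZDHHC6 at 0.02 and UGGT1 at -0.06 did not pass.

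Of 8 measured genes of phosphatidylethanolamine and phosphatidylcholine synthesis beside SELENOI, 1 was higher, 4 lower and 3 did not pass (median log2 fold change -0.078). The 62.5% that passed, 5 of 8 genes, is near the 52.4% of genes at or above the median level, where 7 of the 8 lay. PISD, the mitochondrial decarboxylase that makes phosphatidylethanolamine from phosphatidylserine, read 625.4, 586.6 and 629.3 in shNC and 319.5, 327.3 and 296.1 in shERCC6L. This was a log2 fold change of -0.93 ± 0.05 (SE, n = 3 a group; limma adjusted p = 1.43e-06), which left 51.2% of the signal, and its 4 probe sets gave -0.93 to -0.84. PEMT, which uses phosphatidylethanolamine up by methylating it to phosphatidylcholine, fell by 0.53 (limma adjusted p = 8.77e-06).

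The ethanolamine kinases ETNK1 and ETNK2, at the first step of the route on which SELENOI acts, fell by 0.45 and 0.23 (limma adjusted p = 0.0107 and 0.00418), and all 6 ETNK1 and all 3 ETNK2 probe sets were lower. PCYT2, the rate-limiting enzyme between the kinases and SELENOI, rose by 0.25 (limma adjusted p = 0.00121), on both probe sets. Both PCYT2 probe sets are of the _s_at kind. Without _x_at and _s_at probe sets the list had 0 higher and 4 lower. CEPT1, which can make the same lipid as SELENOI, missed the threshold at 0.13 (limma adjusted p = 0.0502).

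**Figure D4:**
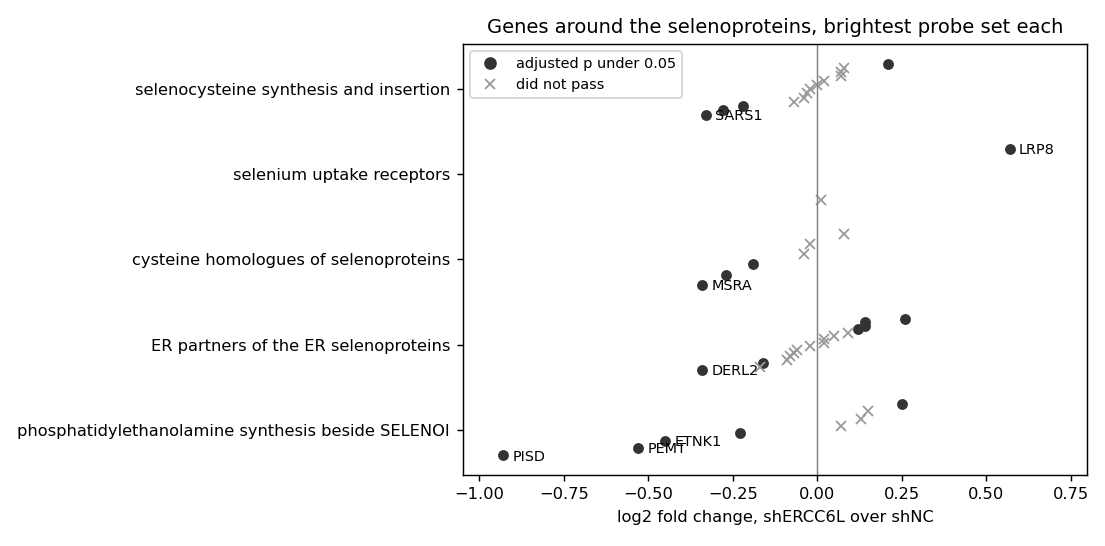
Log2 fold change (shERCC6L over shNC, brightest probe set) of genes in 5 lists around the selenoproteins; filled points passed the limma test and crosses did not. PISD at -0.93, PEMT at -0.53 and LRP8 at 0.57 lie farthest from 0. The list labelled phosphatidylethanolamine synthesis also holds genes of phosphatidylcholine synthesis, PEMT among them. The list labelled cysteine homologues holds glutathione peroxidases and methionine sulfoxide reductases that use cysteine.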

How the data were processed

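The authors deposited 1 linear intensity for each probe set on each array. The submitters' processing notes name Affymetrix Expression Console; its version and how it corrected background, normalized and summarized are not given in the sources used. There are no detection calls, and having 3 arrays a group limits precision.

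Of 49395 probe sets, 102 controls were left out. Gene symbols came from GEO's platform annotation: 44988 other probe sets had 1 symbol, 1832 several and 2473 none listed. Intensities were taken as log2(signal + 16). With R 4.3.3, limma 3.58.1 (2-sided, moderated by eBayes, 4 residual degrees of freedom, no block, no filter) compared shERCC6L with shNC over all probe sets and over 18132 genes, each by its probe set with the highest mean log2 value over the 6 arrays, with Benjamini-Hochberg adjustment. The script was tested on simulated data. Members and gene lists were chosen with earlier results of these data known.

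Named are all members, the 4 genes with the smallest p of each list and list genes changed by 0.5 or more (log2); others named were chosen after their values were seen. No batch is given in the labels. Same-numbered arrays were checked for pairing: deviations from group means correlated at 0.24, -0.14 and -0.01, so they were not treated as pairs. Alternatives were the replicate number as a block, quantile normalization, centring on medians, dropping the dimmest 25%, pseudocounts of 1 and 64, a robust fit with intensity trend, weights for arrays, averaged probe sets, and each array left out in turn.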

Additional observations from a re-analysis of the deposited data

How the results depend on the processing

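The count of 5 of the 9 members other than SELENOT, 2 higher and 3 lower, was the same under every alternative listed, the replicate block included, except that without _x_at and _s_at probe sets (chosen after seeing the data) 3 passed, as GPX1 and SELENOH have no other kind. With the replicate block 13696 probe sets and 5619 genes passed, against 14159 and 5733. Of genes in the lists 23 passed, and 19 to 25 under the alternatives; ER partners, 4 higher and 2 lower, turned to 2 and 5 with quantile normalization and 2 and 3 with the replicate block. SELENOT on its brightest probe set ran from -1.63 to -1.46 (log2), the latter with a pseudocount of 64. The sign turned only for values near 0 that did not pass: SELENOW, at -0.01, ran from -0.04 to 0.02 when an array was left out and was 0.00 with median centring; SELENON, at -0.03, ran from -0.07 to 0.01 and LRP2, at 0.01, from -0.03 to 0.07 when an array was left out; the dimmest SELENOI probe set, at 0.00, ran from -0.02 to 0.03 when an array was left out and was 0.00 with a pseudocount of 64. Dim probe sets, with no detection calls, limit what can be said of the deiodinases, SELENOP, SELENOV and LRP2.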
